A study of Mus musculus with 6 samples.

Results

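The enteric nervous system of the irradiated mouse intestine was followed through 8 genes, the glial genes S100b, Gfap and Sox10 and the neuronal genes Elavl4, Ret, Snap25, Vip and Nos1. They were chosen by name, with earlier results of these data known, and all 8 were found among the 19057 genes that the arrays name. Intestinal total RNA was measured on 6 Illumina MouseWG-6 v2 arrays, on which probes bound to beads report transcripts by brightness. All 6 samples came from male C57 mice (C57BL/6J in the methods) aged 4 weeks that received total body radiation at 7 Gy, and intestines were taken 3.5 days later according to the sample labels. In the free Ub group (3 samples) the mice received free ubiquitin, the unconjugated form of the small protein tag. In the PBS group (3 samples) they received phosphate-buffered saline, the vehicle. No array held an intestine that was not irradiated, so the comparison is between the treatments after radiation. The sources differ on the time of collection, the age and whether the injection came before or after the radiation, and no comparison uses these details.

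Enteric neurons and glia arise from neural crest cells that settle in the gut wall and form the myenteric and submucosal plexuses. The receptor RET, bound by GDNF family ligands, guides this colonisation, and SOX10 maintains the progenitors and the glia. Mature enteric motor neurons that relax gut muscle release nitric oxide, made by NOS1, and the neuropeptide VIP, while enteric glia are recognised by S100B and GFAP. These cells make up a small part of the intestinal wall, and in such bulk RNA fewer cells of a type and less RNA per cell cannot be told apart. Some members are also made outside the plexuses, for example Ret and Snap25 in enteroendocrine cells.

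Between free Ub and PBS intestines, none of the 8 genes reached an adjusted p under 0.05. Of all genes, 0.0577% did so in the same limma fit. At an unadjusted p under 0.05, Sox10 alone was lower with free Ub (1 of 8 genes, against 3.4% of all genes), and 0 of 8 were higher (against 2.34% of all genes). By sign, 4 members were higher and 4 were lower with free Ub, and their median difference was -0.06 log2, beside -0.03 log2 over the 11923 genes above the floor on all 6 arrays. The floor is the value near 0 shared by the dimmest probes of an array, and it holds 32.2% to 33.7% of the probes of an array. Values are log2 signal, so a difference of 1 is a doubling, and levels of different probes are not set against each other. The p-values set each difference against the spread between samples. The labels do not say that the samples of a group are separate animals, so this spread may not be that between animals.

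**Figure D1:**
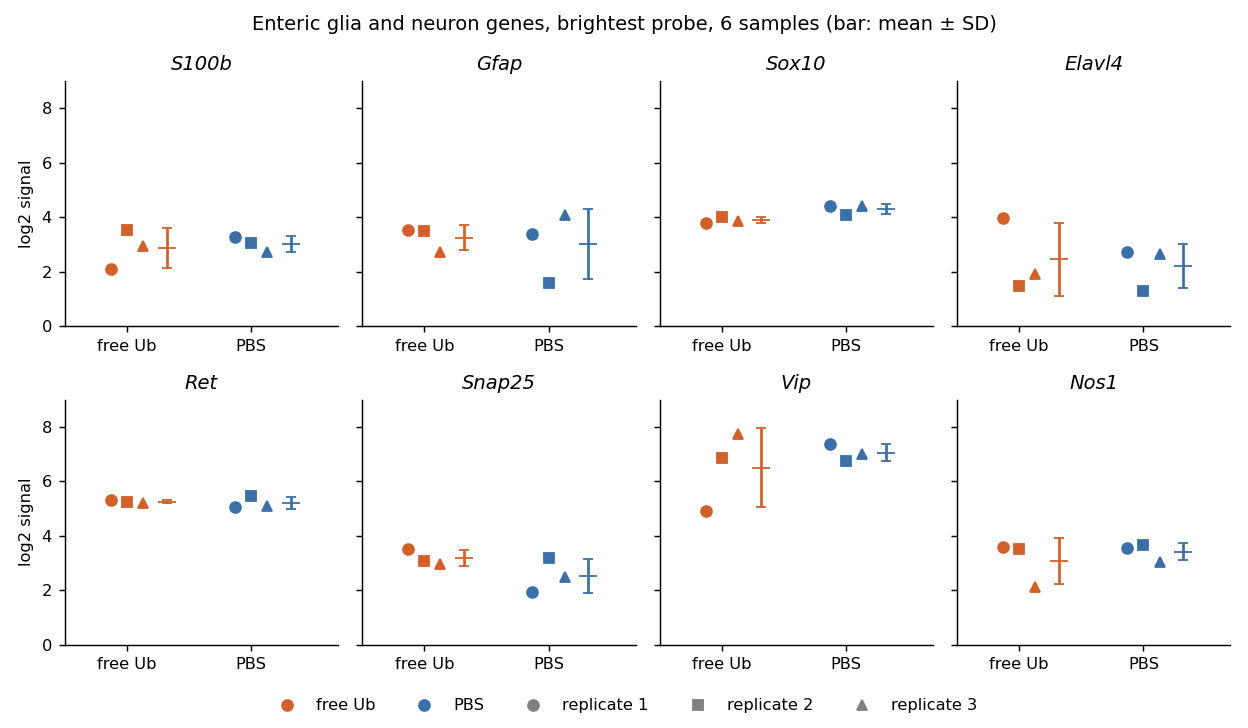
Log2 signal (vertical axis) of the brightest probe of each of the 8 genes in the 3 free Ub samples (orange) and the 3 PBS samples (blue), with the mean and SD as a bar beside them and the marker shape giving the replicate number. The groups separate for Sox10 only, and Vip in free Ub replicate 1, at 4.91, lies below the other 5 samples.

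Among the glial genes, Sox10, the transcription factor of neural crest and glia, had 3.78, 4.01 and 3.86 in the free Ub samples, against 4.41, 4.08 and 4.41 in the PBS samples. All 3 free Ub samples were below all 3 PBS samples, although the highest free Ub sample and the lowest PBS sample were close. Across the 11923 genes above the floor on all 6 arrays, 6.27% were separated in this direction and 4.45% in the other. The means were 3.88 ± 0.11 with free Ub and 4.30 ± 0.19 with PBS (SD, n = 3 each), a difference of -0.42 log2 (SE 0.12, 95% interval -0.74 to -0.10) or 1.34-fold lower. The limma p was 0.0211 before and 0.785 after Benjamini-Hochberg adjustment, and the two-sided exact permutation p was 0.1, the smallest that 3 against 3 can give. The value stayed between -0.53 and -0.37 when each sample was left out in turn, but the unadjusted limma p was 0.067 without PBS replicate 1, 0.066 without PBS replicate 3, 0.067 without free Ub replicate 1 and 0.064 without free Ub replicate 3.

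S100b, a calcium-binding protein of glia, had 2.08, 3.54 and 2.93 in the free Ub samples, against 3.29, 3.05 and 2.71 in the PBS samples. The free Ub samples held both the lowest and the highest value, and the difference was -0.17 log2 (95% interval -1.30 to 0.97, limma adjusted p = 0.979). Gfap, the intermediate filament of astrocytes and reactive enteric glia, had 3.51, 3.50 and 2.71 in the free Ub samples, against 3.39, 1.60 and 4.08 in the PBS samples. PBS replicate 2 was the lowest of the 6 and PBS replicate 3 the highest, and the difference was 0.22 log2 (95% interval -1.74 to 2.17, limma adjusted p = 0.979). A second Gfap probe had 3.54, 0.95 and 3.44 in the free Ub samples, against 1.84 and the floor in the other 2 PBS samples. Here the groups overlapped as well, with a difference of 2.03 log2 (95% interval -0.57 to 4.63, limma unadjusted p = 0.0993).

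The remaining 5 genes belong to neurons. Ret, the receptor tyrosine kinase for GDNF family ligands, had 5.32, 5.25 and 5.19 in the free Ub samples, against 5.05, 5.45 and 5.11 in the PBS samples. The free Ub samples lay within the PBS range, and the difference was 0.05 log2 (95% interval -0.28 to 0.38, limma adjusted p = 0.979). For this brightest probe alone, that leaves room for a change of up to 1.30-fold upward. The other Ret probes had higher free Ub means with overlapping groups. One of them had 4.30, 4.42 and 3.76 in the free Ub samples, against 4.02, 3.63 and 3.26 in the PBS samples (difference 0.53 log2, 95% interval -0.22 to 1.28, limma unadjusted p = 0.126). The dimmest Ret probe, assigned to another transcript record, was at the floor in free Ub replicate 1 and at 2.48 and 2.47 in the other free Ub samples, against the floor in all 3 PBS samples. When the 3 probes were averaged, Ret was 0.74 log2 higher with free Ub (limma unadjusted p = 0.0316, adjusted p = 0.792), but the dimmest probe, at the floor on 4 of 6 arrays, enters that mean. The 2 probes above the floor on all arrays averaged 0.29 log2.

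Elavl4, the neuronal RNA-binding protein HuD, had 3.98, 1.48 and 1.90 in the free Ub samples, against 2.72, 1.27 and 2.65 in the PBS samples. Free Ub replicate 1 stood above the rest while the other 2 free Ub samples were among the low ones (difference 0.24 log2, 95% interval -2.01 to 2.50, limma adjusted p = 0.979). A second Elavl4 probe had 1.84, 2.39 and 2.57 in the free Ub samples, against 4.02, 1.07 and 1.43 in the PBS samples. The probes thus placed their highest value in different samples, the first in free Ub replicate 1 and the second in PBS replicate 1, and 2 further Elavl4 probes were at the floor on all 6 arrays.

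Snap25, a SNARE protein that drives fusion of synaptic vesicles with the membrane, had 3.50, 3.07 and 2.95 in the free Ub samples, against 1.92, 3.17 and 2.48 in the PBS samples. Only PBS replicate 2 reached the free Ub range. The difference of 0.65 log2 (95% interval -0.35 to 1.65, limma unadjusted p = 0.151, adjusted p = 0.872, exact permutation p = 0.3) was the largest positive one of the 8. It was 0.35 log2 without PBS replicate 1 (limma unadjusted p = 0.342) and 0.97 log2 without PBS replicate 2 (unadjusted p = 0.0308, adjusted p = 0.706), and in the fit without PBS replicate 2 Ret was 0.17 log2 higher (unadjusted p = 0.0383, adjusted p = 0.758).

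Nos1, the neuronal nitric oxide synthase, had 3.58, 3.51 and 2.10 in the free Ub samples, against 3.55, 3.64 and 3.05 in the PBS samples. Free Ub replicate 3 was the lowest of the 6 while the other free Ub samples lay within the PBS range, and the difference was -0.35 log2 (95% interval -1.64 to 0.94, limma adjusted p = 0.964). Without free Ub replicate 3 it was 0.13 log2. The second probes of Nos1 and of Snap25 were at the floor on all 6 arrays.

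Vip encodes vasoactive intestinal peptide, the secretory and muscle-relaxing neuropeptide of the gut. It is a textbook target of cyclic AMP through a cyclic AMP response element (CRE) in its promoter. Of the members, Vip varied most for its brightness among the free Ub samples, though not among the PBS samples (below). For that reason its promoter is shown here from RefSeq, build GRCm38.p6, chr10:5639125-5639227 on the plus strand. The stretch runs from 93 bases before the transcription start to 10 after it. Capitals mark the CRE, first base 79 before the start, and the TATA box, first base 30 before it.
Vip promoter: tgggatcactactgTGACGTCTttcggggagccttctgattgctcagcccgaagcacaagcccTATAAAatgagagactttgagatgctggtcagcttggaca

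The CRE letters TGACGTCT were found on either strand in 0.584% of the 32851 promoter windows of the same RefSeq table, and its half-site TGACG in 20.8%. Of the 5 members with a promoter in that table (S100b, Gfap, Elavl4, Vip and Nos1), Vip alone held TGACGTCT, and the half-site, which lies within TGACGTCT, was in Elavl4, Vip and Nos1. The TATA box letters TATAAA were found in 13.6% of windows and, among the members, in Vip. These matches describe the letters only, and windows differ in length.

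The Vip probe had 4.91, 6.87 and 7.72 in the free Ub samples, against 7.38, 6.76 and 7.00 in the PBS samples. Free Ub replicate 1 was far below the other 5 samples and free Ub replicate 3 was the highest. The means were 6.50 ± 1.44 with free Ub and 7.05 ± 0.31 with PBS (SD, n = 3 each), and the difference of -0.55 log2 had a 95% interval from -2.67 to 1.57, or from 0.158-fold to 2.97-fold (limma adjusted p = 0.973, exact permutation p = 0.8). Without free Ub replicate 1 the difference was 0.25 log2 higher with free Ub (limma adjusted p = 0.966), so that sample sets the direction. A second and dimmer Vip probe did not repeat this order. It had 2.81, 3.31 and 2.72 in the free Ub samples, against 1.56, 3.88 and 3.12 in the PBS samples, with PBS replicate 1 the lowest.

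**Figure D2:**
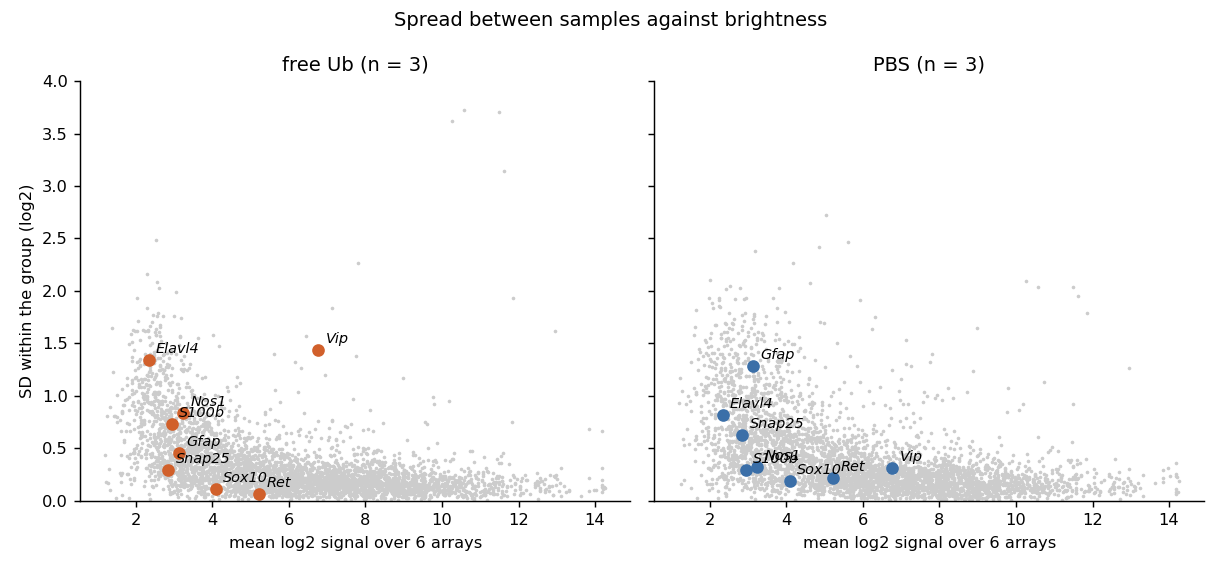
SD within a group (vertical axis, log2) against mean log2 signal over 6 arrays (horizontal axis) for the 8 genes (colored) and 4000 randomly drawn probes above the floor on all 6 arrays (gray), for free Ub (left) and PBS (right). Vip stands high in the free Ub panel, with an SD of 1.44 at a mean of 6.77, and among the bulk of the probes in the PBS panel.

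The spread of Vip among the free Ub samples was set against that of the 2394 probes whose mean lies within 0.5 log2 of its own. Their median SD in the free Ub group was 0.193 log2, and the Vip SD of 1.44 exceeded 99.5% of them, whereas its PBS SD of 0.31 exceeded 71.8%. The other 7 genes had free Ub SDs between the 3.71th percentile (Ret) and the 80.0th percentile (Nos1) of their own brightness class. Their PBS SDs ran between the 11.0th percentile (Sox10) and the 82.7th (Gfap). Sox10, measured by 1 probe only, also had a low free Ub SD, at the 8.06th percentile. With an intensity trend and robust variances its unadjusted limma p was 0.0811. The 3 arrays of a group limit how well any of these SDs is known.

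The genes whose values over the 6 arrays were most like those of Vip, among the 6140 genes with a mean above 6, were Rplp0 (Pearson r = 0.997), a ribosomal stalk protein, Hcfc1 (0.986), a transcriptional coregulator, and Shc1 (0.986), an adaptor of receptor tyrosine kinases. Rplp0 had 6.56, 7.06 and 7.23 in the free Ub samples, against 7.15, 6.99 and 7.09 in the PBS samples, a much smaller range in the same order of samples. In all, 92 genes reached r of 0.9. The correlations rest on 6 points in which free Ub replicate 1 lies apart. Without the 2 arrays farthest from the Vip median, free Ub replicates 1 and 3, r over the other 4 was 0.940 for Rplp0, 0.967 for Hcfc1 and 0.864 for Shc1. The 3 genes were picked by their r over all 6 arrays, which include these 4, so these values are no separate check.

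**Figure D3:**
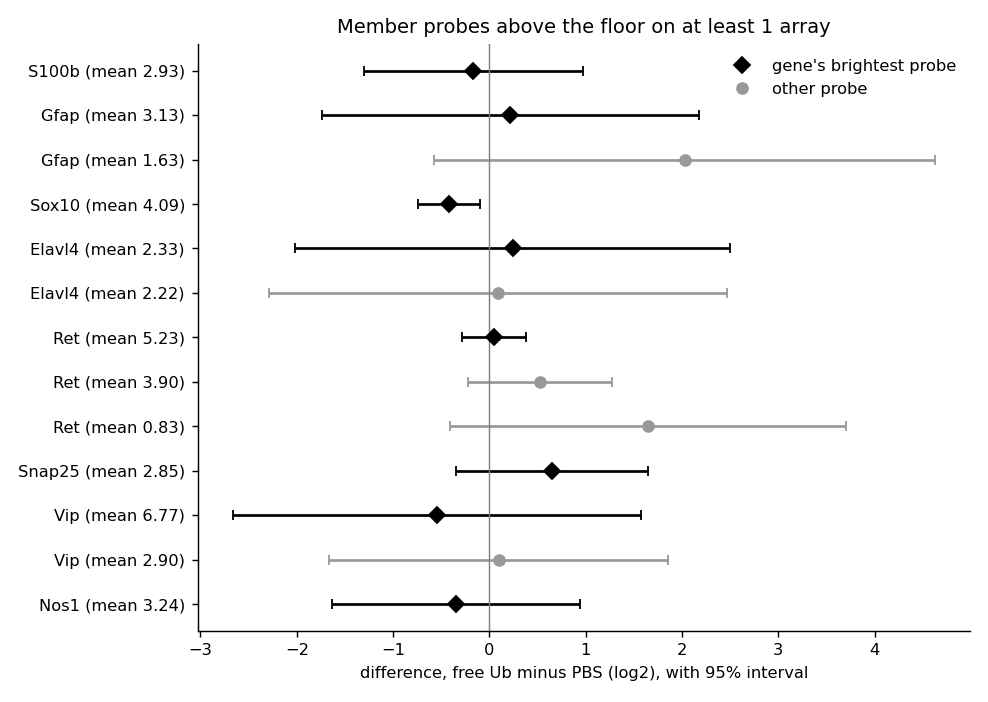
Difference free Ub minus PBS (horizontal axis, log2) with its 95% interval for each member probe that was above the floor on at least 1 array, labelled with its gene and its mean log2 signal. Black diamonds are the brightest probe of a gene and gray circles its other probes, and the interval of the Sox10 probe alone lies on one side of 0.

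The 8 genes have 17 probes, of which 11 lay above the floor everywhere and 4 stayed at it in all 6 samples, so those 4 carry no measurement. The brightest probe of each gene was above the floor on every array. Precision differed widely between genes, since the width of the 95% interval was 0.64 log2 for Sox10 and 0.66 for Ret but 4.24 for Vip and 4.51 for Elavl4. Among the brightest probes, every interval apart from those of Sox10 and Ret reached beyond 1 log2 in at least 1 direction. The intervals of the other Ret probes reached up to 1.28 and 3.70 log2.

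Other neural and related genes were read from 6 lists with 112 genes, of which 101 had a probe and 56 a signal over the floor in every sample. The lists were glia and Schwann cells, pan-neuronal genes, synaptic vesicles, transmitter enzymes and neuropeptides, RET signals, and receptors and targets of VIP and nitric oxide. They also hold genes of other cells, such as the smooth muscle Mrvi1, the endothelial Nos3, and Sst and Ddc of enteroendocrine cells. The pooled counts below are therefore not of neural cells alone. No adjusted p was under 0.05. Before adjustment, 5 of 101 had p under 0.05 and were lower and 2 were higher with free Ub, against 3.4% and 2.34% of all genes. Of the 56 genes above the floor, 35 were lower and 21 higher (median -0.13 log2), while of all 11923 such genes 6430 were lower and 5493 higher. In 6 of the 56, the endothelial Nos3 among them, the groups did not overlap, each with free Ub lower, against 6.27% of all such genes.

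Among the pan-neuronal genes, 8 of 10 above the floor were lower with free Ub (median -0.37 log2). Ncam1, a neural cell adhesion molecule, had 4.19, 4.42 and 4.64 in the free Ub samples, against 5.44, 4.96 and 5.09 in the PBS samples. The groups were separate, with a difference of -0.75 log2 (limma unadjusted p = 0.0119, adjusted p = 0.678). Of the other Ncam1 probes, those above the floor on all arrays differed by -0.08 and 0.47 log2 with overlapping groups, and the last was at the floor on 5 of 6 arrays. The 3 probes above the floor averaged -0.12 log2. Dpysl3, a protein of growing axons, differed by -0.51 log2 (unadjusted p = 0.095). Tubb3, the neuronal tubulin, was at the floor on all 6 arrays.

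Synaptic vesicle genes were divided, with 7 lower and 5 higher of the 12 above the floor (median -0.08 log2). Syp, the vesicle protein synaptophysin, had 4.71, 4.66 and 4.54 in the free Ub samples, against 5.84, 5.21 and 4.93 in the PBS samples (difference -0.69 log2, limma unadjusted p = 0.0483, adjusted p = 0.872). Vamp2, the vesicle SNARE that pairs with SNAP25, had 7.08, 7.10 and 7.20 in the free Ub samples, against 7.45, 7.27 and 7.31 in the PBS samples (difference -0.22 log2, limma unadjusted p = 0.0246, adjusted p = 0.825). Both were lower in every free Ub sample than in any PBS sample, the opposite sign to Snap25. Without PBS replicate 1 the Syp difference was -0.43 log2 (limma unadjusted p = 0.0241). The unadjusted limma p of Syp was 0.0874 without PBS replicate 2 and 0.0964, 0.107 and 0.126 without free Ub replicates 1, 2 and 3, and that of Vamp2 was 0.0754 and 0.0745 without free Ub replicates 1 and 2. Nsf, which takes spent SNARE complexes apart, differed by 0.08 log2.

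**Figure D4:**
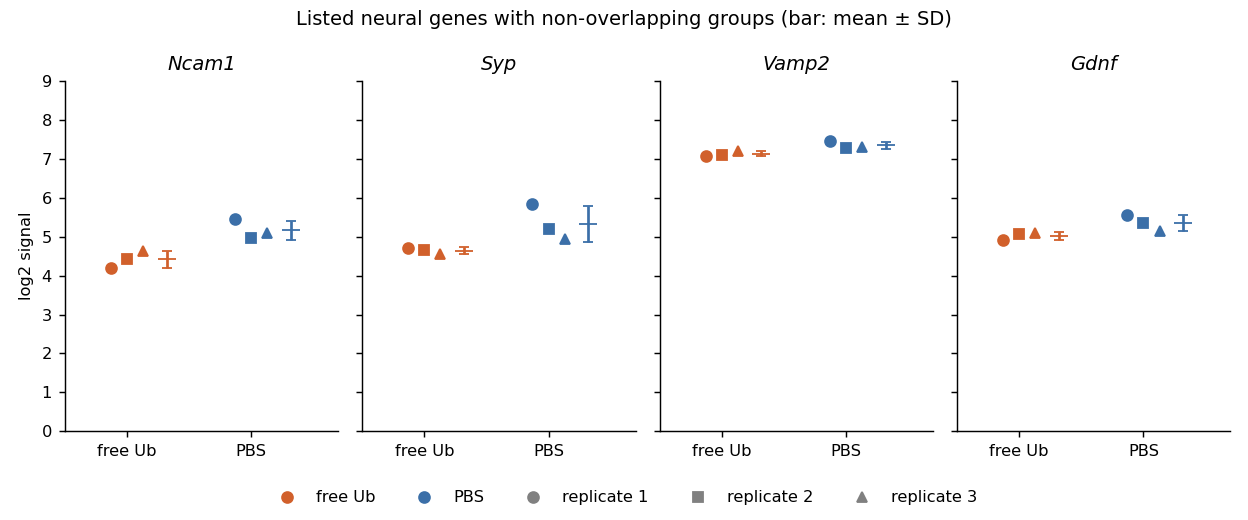
Log2 signal (vertical axis) of Ncam1, Syp, Vamp2 and Gdnf in the 3 free Ub samples (orange) and the 3 PBS samples (blue), with the mean and SD as a bar and the marker shape giving the replicate number. These 4 genes were picked because their groups do not overlap, so every free Ub sample lies below every PBS sample by choice. Slc18a3 and Nos3, also without overlap, are not drawn. Each gene is shown by its brightest probe, and the other Ncam1 probes had overlapping groups. No adjusted p under 0.05 was reached.

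Of the RET ligands, co-receptors and neural crest signals, 5 of 6 above the floor were lower with free Ub (median -0.40 log2). Gdnf, the ligand of RET, had 4.91, 5.06 and 5.10 in the free Ub samples, against 5.55, 5.36 and 5.16 in the PBS samples. The groups were separated by a small step, with a difference of -0.33 log2 (limma unadjusted p = 0.0461, adjusted p = 0.872). Its unadjusted p was above 0.05 whenever a sample other than PBS replicate 3 was left out (0.0724 to 0.127). The mean of the 6 genes was 5.06 to 5.21 in the free Ub samples and 5.38 to 5.70 in the PBS samples. The mean over all 11923 genes above the floor on all 6 arrays was also separated in this direction, by a smaller step. It was 6.250 to 6.258 in the free Ub samples and 6.265 to 6.304 in the PBS samples. In each of the other neural lists the sample means overlapped between the groups. For the 6 neural lists together they were 4.96 to 5.05 in the free Ub samples and 4.97 to 5.34 in the PBS samples. Ece1, which activates endothelins, and Zeb2, a neural crest transcription factor, differed by -0.22 and -0.48 log2 (unadjusted p = 0.0824 and 0.14). The other Ece1 probe, above the floor on all 6 arrays, differed by 0.24 log2 with overlapping groups (limma unadjusted p = 0.467). The other Zeb2 probes, at the floor on some arrays, had differences of both signs with overlapping groups. The GDNF co-receptor genes Gfra1 and Gfra2 were at the floor on all 6 arrays.

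Dim genes past the same unadjusted threshold were named after their values were seen. Ntrk3, a neurotrophin receptor, was at the floor in free Ub replicates 1 and 3 and at 1.73 in replicate 2, against 4.16, 2.23 and 2.26 in the PBS samples (limma unadjusted p = 0.04), and its other 2 probes, also at the floor on some arrays, had higher free Ub means with overlapping groups. Nxph2, a neurexophilin, had 2.40, 2.03 and 2.84 in the free Ub samples, against 0.84, 1.24 and the floor in the PBS samples (unadjusted p = 0.0102). Gfra4, a GDNF family co-receptor, had 2.20, 2.65 and 1.14 in the free Ub samples, against 0.63 and the floor in the other 2 PBS samples (unadjusted p = 0.0148). Left-out samples ended the call of Ntrk3 (p of 0.0585 to 0.114, all but free Ub replicate 2) and of Gfra4 (0.0518 without PBS replicate 2, 0.0511 without PBS replicate 3 and 0.0509 without free Ub replicate 1), but not that of Nxph2. Since 1 or 2 samples of each were at the floor, no fold change is given for these 3 genes.

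Of the glial and Schwann cell genes, 3 of 5 above the floor were lower and 2 higher (median -0.11 log2), and none passed an unadjusted p under 0.05. Ednrb, the endothelin receptor of the neural crest, differed by -0.24 log2 (limma unadjusted p = 0.188) and Entpd2, an ectonucleotidase of enteric glia, by 0.07 (unadjusted p = 0.291). The transmitter list had 8 lower and 7 higher of 15 (median -0.06 log2). Its cholinergic vesicle transporter Slc18a3 was dim, with 2.74, 2.44 and 1.63 in the free Ub samples, against 2.99, 3.01 and 3.12 in the PBS samples (difference -0.77 log2, unadjusted p = 0.0634). The groups did not overlap, while the brighter Sst (somatostatin) and Ddc (aromatic amino acid decarboxylase), which enteroendocrine cells also make, had overlapping groups and differed by -0.28 and 0.05 log2.

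The list of VIP and nitric oxide receptors and targets also holds the nitric oxide synthase Nos3, which is not downstream of either. Of its 8 genes above the floor, 4 were lower and 4 higher (median -0.05 log2), and none passed an unadjusted p under 0.05. Gucy1a1, a subunit of the nitric oxide receptor guanylate cyclase, differed by -0.22 log2, and Mrvi1, a smooth muscle target of cyclic GMP signaling, by 0.03. Pde5a, which breaks down cyclic GMP, had 4.68, 5.45 and 5.31 in the free Ub samples, against 4.53, 4.90 and 4.79 in the PBS samples (difference 0.41 log2, limma unadjusted p = 0.163). Nos3, the endothelial nitric oxide synthase, had 4.34, 4.66 and 3.60 in the free Ub samples, against 4.78, 4.91 and 4.97 in the PBS samples (difference -0.69 log2, unadjusted p = 0.0758), without overlap. The other 3 Nos3 probes also had lower free Ub means, without overlap for the first (-1.30 log2, unadjusted p = 0.0205) and with overlap for the rest (-0.33 and -0.40 log2, unadjusted p = 0.577 and 0.767).

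**Figure D5:**
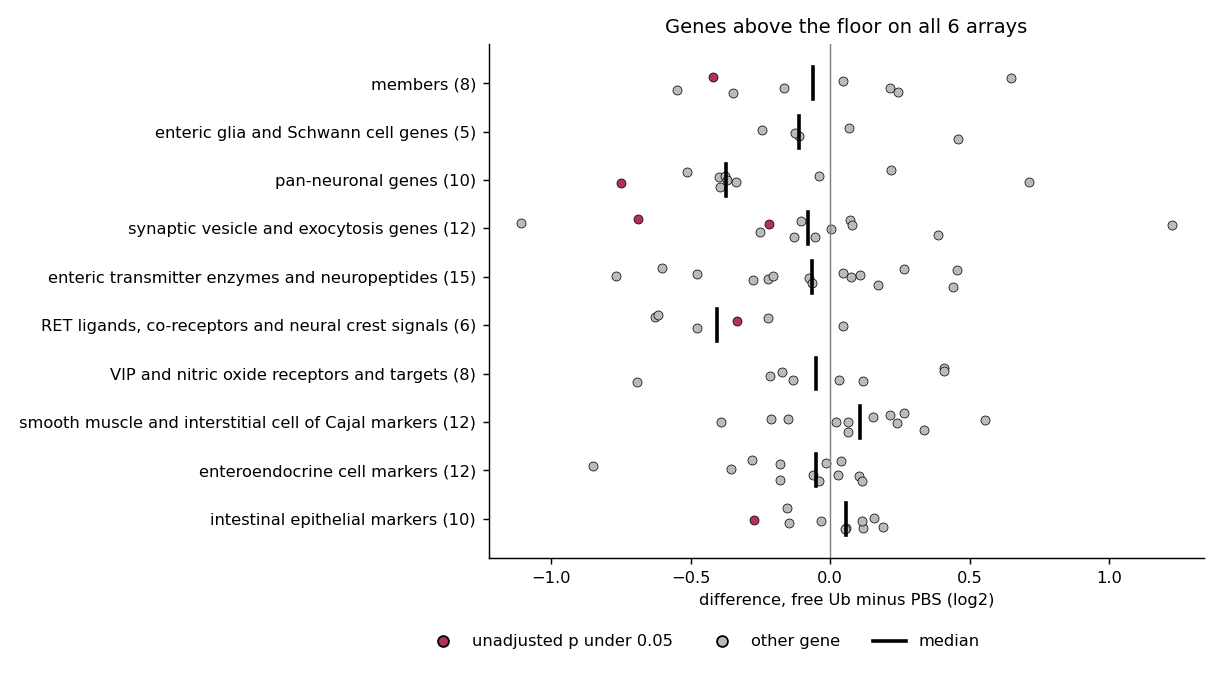
Difference free Ub minus PBS (horizontal axis, log2) of every gene above the floor on all 6 arrays, for the 8 members (top), the 6 neural lists and 3 lists of other cell types, with the number of genes in brackets, filled red at an unadjusted limma p under 0.05 and with the median as a black line. The medians of the pan-neuronal and RET lists lie farthest to the left, at -0.37 and -0.40.

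Markers of the other cells of the gut wall were read in the same samples. The mean level of 12 smooth muscle and interstitial cell of Cajal genes was 7.59 to 7.65 in the free Ub samples and 7.03 to 8.19 in the PBS samples. PBS replicate 1 was highest and PBS replicate 3 lowest, and none of the list's 14 genes passed an unadjusted p under 0.05 (Mylk 0.26, Acta2 0.06 and Etv1 -0.39 log2, with overlapping groups). The mean of the pan-neuronal genes above the floor was 3.68 to 3.98 in the free Ub samples, against 4.39, 3.76 and 4.02 in the PBS samples, with PBS replicate 1 again the highest. Sox10 was at 4.41 in PBS replicates 1 and 3 and at 4.08 in PBS replicate 2. Enteroendocrine genes had a mean of 5.35 to 5.62 in the free Ub samples and 5.53 to 5.83 in the PBS samples, and 0 of 15 passed an unadjusted p under 0.05. Chga, the granule protein chromogranin A, had 6.81, 6.81 and 6.43 in the free Ub samples, against 6.86, 6.89 and 7.13 in the PBS samples. It was thus lower in every free Ub sample, as were Ncam1, Syp and Vamp2 (difference -0.28 log2, limma unadjusted p = 0.121), while its other probes differed by -0.22 and 0.47 log2 with overlapping groups. Chgb, Gip and Neurog3 differed by 0.11, 0.03 and -0.35 log2, also with overlap. Epithelial genes had 10.65 to 10.88 in the free Ub samples and 10.62 to 10.88 in the PBS samples. The intestinal transcription factor Cdx2 alone of this list's 12 genes had an unadjusted p under 0.05 (difference -0.27 log2, limma adjusted p = 0.75), and its unadjusted p was 0.0573 without PBS replicate 1 and 0.0528 without PBS replicate 3. The part of muscle or endocrine tissue in the neural values was not tested. The labelled tissue was borne out by bright epithelial genes such as Lgals4 and Krt8, which were above 13 on all arrays, whereas the enterocyte genes Fabp1 and Fabp2 were at the floor on 4 and 3 of the 6 arrays. All pairs of the 6 arrays had r of 0.949 or more over the 21349 probes above the floor on all of them. PBS replicate 1 was the least like the others, with a median r of 0.950, against 0.962 to 0.966 for the other arrays. It also held the highest value of Ncam1, Syp, Vamp2 and Gdnf.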

How the data were processed

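Intestinal RNA of 3 free Ub and 3 PBS samples was profiled on Illumina MouseWG-6 v2 arrays. The authors normalized the raw signals by cubic spline in GenomeStudio (version not given in the sources used here), and the deposited log2 values were used without further normalization. No source states the log base, which was inferred from a highest value of 14.5, or the background handling. Every column has the same median, 2.55. A value within 0.01 of the lowest of its array counts as at the floor. Samples were grouped by their labels.

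The free Ub samples were compared with the PBS samples by limma 3.58.1 under R 4.3.3, fitting every one of the 45281 probes with lmFit and eBayes without covariates. The test was two-sided, and p-values were adjusted by the Benjamini-Hochberg method across the whole table (threshold 0.05). The procedure was tested on simulated data in which all probes of a brightness class had the same SD, unlike the measured probes. GEO's platform annotation gave 1 gene symbol for 34885 probes, several for 18 and none for 10378. The value of a gene (19057 genes) is that of its brightest probe, judged by the average of the 6 arrays. Tables and figures were made in Python 3.11.15 with pandas 2.3.3, scipy 1.17.1 and matplotlib 3.10.9.

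Named were all members, the 2 brightest genes and the 2 with the smallest p of each list among those above the floor on all 6 arrays, and the 3 genes most correlated with a member of mean above 6. Ntrk3, Nxph2 and Gfra4 (past an unadjusted p), Tubb3, Gfra1, Gfra2, Fabp1 and Fabp2 (at the floor) were named after their values were seen. The members and the 9 lists (154 genes, 142 with a probe) were chosen with earlier results of these data known. In all, 18 alternative settings were tried: quantile normalization, median centring, floors of 4 and 6, filters on dim probes, a replicate block, Student's t-tests, variance models, array weights, the mean of a gene's probes, and leaving out each sample.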

Additional observations from a re-analysis of the deposited data

How the results depend on the processing

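No member passed an adjusted p under 0.05 in any of the 18 alternatives in which it could be fitted. With values under 4 raised to 4, S100b, Elavl4, Snap25 and Nos1 could not be fitted, and with values under 6 raised to 6, Vip alone could. The count of members past an unadjusted p under 0.05, 1 in the reported fit, was 0 with probes above the median of probe means, with values under 6 raised to 6, with an intensity trend and robust variances, and with the replicate number as a block in limma or in a paired Student's t-test. It was 2 when a gene's probes were averaged and 0 to 3 when 1 sample was left out. Deviations from the group means correlated at -0.003, 0.020 and -0.091 for same-numbered samples over 21349 probes. For samples of different numbers they ran from -0.093 to 0.092. No source says whether equal numbers share a litter or day, and these correlations, from groups of 3, cannot exclude it. Under the block in limma, Sox10 had an unadjusted p of 0.0886. Sox10 was lower in all of its 17 alternatives (-0.53 to -0.30 log2) and past an unadjusted p under 0.05 in 9 of them. Gfap reversed to -0.028 with values under 4 raised to 4 and to -0.20 with array weights, and S100b to 0.079 with array weights. Leaving out 1 sample gave -0.50 to 0.75 for Gfap, -0.52 to 0.73 for Elavl4, -0.028 to 0.17 for Ret, -0.51 to 0.22 for S100b, 0.35 to 0.97 for Snap25, -1.16 to 0.25 for Vip and -0.61 to 0.13 for Nos1. The members' median difference ran from -0.23 to 0.11 in these fits, above 0 without free Ub replicate 1 (0.05) and without free Ub replicate 3 (0.11). Alternatives for the neural lists were chosen after the data were seen. Their count lower at an unadjusted p under 0.05, 5 in the reported fit, was 3 with probes above the floor on all 6 arrays, probes above the median, averaged probes, median centring, quantile normalization and array weights, 2 with the block in limma, the intensity trend and the unpaired t-test, 1 with the paired t-test, 0 with values under 6 raised to 6, and 3 to 7 when 1 sample was left out. The count higher, 2, was 0 with both filters on dim probes, both floors and the paired t-test, 1 with the block in limma, 4 with array weights, and 1 to 4 when 1 sample was left out. Ncam1 and Ntrk3 reversed to 0.19 and 0.043 when a gene's probes were averaged, means that include probes at the floor on some arrays. Over the probes above the floor on all 6 arrays, an alternative also added after the data were seen, Ncam1 averaged -0.12, and Ntrk3 has no such probe. Ncam1 passed an unadjusted p under 0.05 in 14 of 17 alternatives, Syp in 8 of 17, Vamp2 in 7 of 18, Gdnf in 2 of 17 and the epithelial Cdx2 in 11 of 18. Syp was -0.44 with array weights. The causes were not tested. The 3 arrays of a group limit the precision.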
